A study of Mus musculus with 12 samples.

Results

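The genes described here are 9 genes of fibrinolysis and anticoagulation, *Plat*, *Plau*, *Plaur*, *Serpine2*, *F3*, *Tfpi*, *F2r*, *Thbd* and *Procr*, in mouse ES cells and in the XEN-like cells made from them. The members were chosen by name, and every probe whose gene name equals that of a member was read in all groups. This gave 12 probes, of the 55681 probes with 34836 gene names on the array. Of the 9 genes, 8 were among the 18991 genes tested. *Plau* was not well above background on any array and was not tested.

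All cells carried Gata6GR, a fusion of the transcription factor Gata6 with the hormone-binding part of the glucocorticoid receptor that is switched on by dexamethasone (Dex). The 4 groups were *Sox7* (+/−) ES cells and *Sox7* (−/−) ES cells kept without Dex, and *Sox7* (+/−) and *Sox7* (−/−) XEN-like cells treated with Dex, all collected at day 4, with 3 single-colour Agilent arrays for each group. The *Sox7* (+/−) line is a clone of targeted ES cells, and the *Sox7* (−/−) cells were selected from it with a high dose of puromycin, so each genotype is 1 line and the genotype and the line cannot be told apart. The arrays held no wild-type cells and no Dex-treated cells without Gata6GR, so the activation of Gata6 and the Dex itself cannot be told apart either.

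Fibrinolysis dissolves clots: the plasminogen activators tPA (*Plat*) and uPA (*Plau*), the latter held at the cell surface by its receptor (*Plaur*), cut plasminogen to plasmin, and serpins such as protease nexin 1 (*Serpine2*) restrain the activators and thrombin. Clotting starts from tissue factor (*F3*), is held back by the tissue factor pathway inhibitor (*Tfpi*), and reaches the cell through the thrombin receptor PAR1 (*F2r*). Thrombomodulin (*Thbd*) and the endothelial protein C receptor (*Procr*) turn thrombin towards the activation of the anticoagulant protein C. Parietal endoderm and its cell lines have long been known for secreting tPA, and thrombomodulin is a classical product of the same cells, which line the outer wall of the yolk sac beneath the trophoblast.

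Signals are given relative to the 75th percentile of all background-subtracted spots on the same array, as a percentage, so that 100% is the signal below which 75% of the spots of that array lie. The 75th percentile lay between 252.3 and 415.9 intensity units, 41.7% to 52.3% of the spots were well above background, and no spot was saturated. Below background means here not well above background, which does not say that there was no signal. Log2 differences come from limma, fitted to all 12 arrays together. A gene is termed called where its p value, adjusted by the Benjamini-Hochberg method, was under 0.05 and its groups differed over 2-fold. *Sox7* itself (mm9 chromosome 14, 64569419 to 64569478) was measured first, with 218% to 229% in *Sox7* (+/−) ES cells, 490% to 688% in *Sox7* (+/−) XEN-like cells and no array of *Sox7* (−/−) cells well above background. Replicates of a group correlated at 0.982 or more (Pearson's r across probes). *Sox7* (+/−) XEN-like replicate 3 stood apart from the other arrays of its group, at 0.982 and 0.983 in place of 0.994. Of the 2 slides, the first carried all 3 arrays of *Sox7* (−/−) ES cells and 1 of *Sox7* (−/−) XEN-like cells (replicate 1), and the other 8 arrays were on slide 2. Nothing in the labels tells if the replicates came from separate cultures, and the source labels of all 3 *Sox7* (+/−) ES arrays carry the same replicate number, so the p values measure the spread between these arrays, which may be technical.

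The reference used here holds RefSeq promoters (GRCm38.p6, 250 bases before to 50 bases after the start) of 6 of the 9 genes, *Plaur*, *Serpine2*, *F3*, *Tfpi*, *F2r* and *Procr*. *Tfpi* has a pair of them, which makes 7 promoters. Both strands were searched for 4 kinds of motif, and overlapping matches were counted once. The AP-1 motif, TGACTCA or its reverse complement TGAGTCA, was found in 4 of the 7, those of *Plaur*, *F3*, *F2r* and *Procr*, and in 5.2% of all 32851 promoters of the table. A GATA motif (AGATAA or AGATAG or TGATAA or TGATAG) was found in both promoters of *Tfpi* and in none of the other 5, against 29.8% of all promoters. A Sox motif (ACAAAG or ACAATG or ACAAT, of which the last overlaps the one before it) was found in 3, those of *Serpine2* and *Tfpi*, against 42.9%. An Sp/Klf motif (CCGCCC or GGGCGG) was found in 6, all but that of *Procr*, against 35.7%. A match is only a run of letters, and it does not say that a factor binds there.

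The 4 promoters with the AP-1 motif are shown. Of their genes, *F3* and *Procr* were strongly higher in XEN-like cells, *Plaur* was higher by less than 2-fold, and *F2r* did not pass the test there. The promoters of *Serpine2* and *Tfpi* lack the motif. The log2 differences of *Serpine2* with Dex in *Sox7* (+/−) and *Sox7* (−/−) cells were 0.86 and 0.91, beside 0.83 and 0.97 for *Plaur*. The brightest probe of *Tfpi* gave −0.40 and −0.18. *Plat* and *Thbd*, strongly higher like *F3* and *Procr*, have no promoter in the reference. Whether the motif has a part in the response was not tested. The motif is in capitals, and each sequence runs 5′ to 3′ along the strand of its gene. The motif begins 135 bases before the start in *F3* (chr3:121723287-121723586, plus strand), 154 bases before it in *Procr* (chr2:155750967-155751266, plus strand), 69 bases before it in *Plaur* (chr7:24462233-24462532, plus strand) and 204 bases before it in *F2r* (chr13:95618417-95618716, minus strand).
F3: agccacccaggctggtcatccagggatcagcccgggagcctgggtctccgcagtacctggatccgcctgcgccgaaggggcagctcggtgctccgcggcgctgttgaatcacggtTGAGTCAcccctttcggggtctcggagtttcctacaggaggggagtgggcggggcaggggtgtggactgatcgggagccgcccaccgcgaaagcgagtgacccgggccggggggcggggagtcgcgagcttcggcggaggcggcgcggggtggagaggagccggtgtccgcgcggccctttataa
Procr: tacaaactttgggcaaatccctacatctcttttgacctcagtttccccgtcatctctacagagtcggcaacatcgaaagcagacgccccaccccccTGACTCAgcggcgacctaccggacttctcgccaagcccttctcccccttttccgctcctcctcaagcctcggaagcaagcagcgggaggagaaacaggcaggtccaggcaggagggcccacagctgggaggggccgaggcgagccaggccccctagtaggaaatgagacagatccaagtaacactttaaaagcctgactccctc
Plaur: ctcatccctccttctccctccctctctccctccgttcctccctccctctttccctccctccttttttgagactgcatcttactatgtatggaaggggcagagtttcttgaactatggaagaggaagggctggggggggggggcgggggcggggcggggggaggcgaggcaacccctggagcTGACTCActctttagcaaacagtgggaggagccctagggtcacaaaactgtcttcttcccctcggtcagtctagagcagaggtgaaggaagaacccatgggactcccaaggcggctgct
F2r: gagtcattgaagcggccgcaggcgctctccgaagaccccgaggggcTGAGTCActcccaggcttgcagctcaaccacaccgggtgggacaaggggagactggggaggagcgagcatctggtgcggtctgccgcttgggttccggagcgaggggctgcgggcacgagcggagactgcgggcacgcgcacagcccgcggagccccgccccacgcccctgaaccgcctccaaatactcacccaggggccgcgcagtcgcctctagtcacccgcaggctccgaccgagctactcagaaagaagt

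With Dex, *Plat*, *F3*, *Thbd* and *Procr* rose in both genotypes, by between 5.92-fold and 42.7-fold, and no member was called lower. *Plaur* and *Serpine2* passed the adjusted p on the higher side in both genotypes, by less than 2-fold. *Tfpi* was lower by less than 2-fold in *Sox7* (+/−) cells, and *F2r* did not pass the test in either genotype on this scale. Members called numbered 4 of 8 tested in *Sox7* (+/−) cells, where 25.1% of all tested genes were called in either direction, 11% were called higher and 14.1% were called lower. They were also 4 of 8 in *Sox7* (−/−) cells, where 28.7% of genes were called, 14.6% higher and 14.1% lower. At any size, 7 members passed the adjusted p in *Sox7* (+/−) and 6 in *Sox7* (−/−) cells, against 64.0% and 66.2% of all tested genes. The ES and XEN-like arrays did not overlap for 7 members in each genotype, as for 68.8% and 74.9% of all tested genes. The median log2 difference of the 8 was 1.71 and 1.79, beside 0.16 and 0.07 for all tested genes. Both comparisons used their own ES cells as the control, and no array is shared between them. In bulk RNA, fewer cells of a type and less RNA per cell cannot be told apart.

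**Figure D1:**
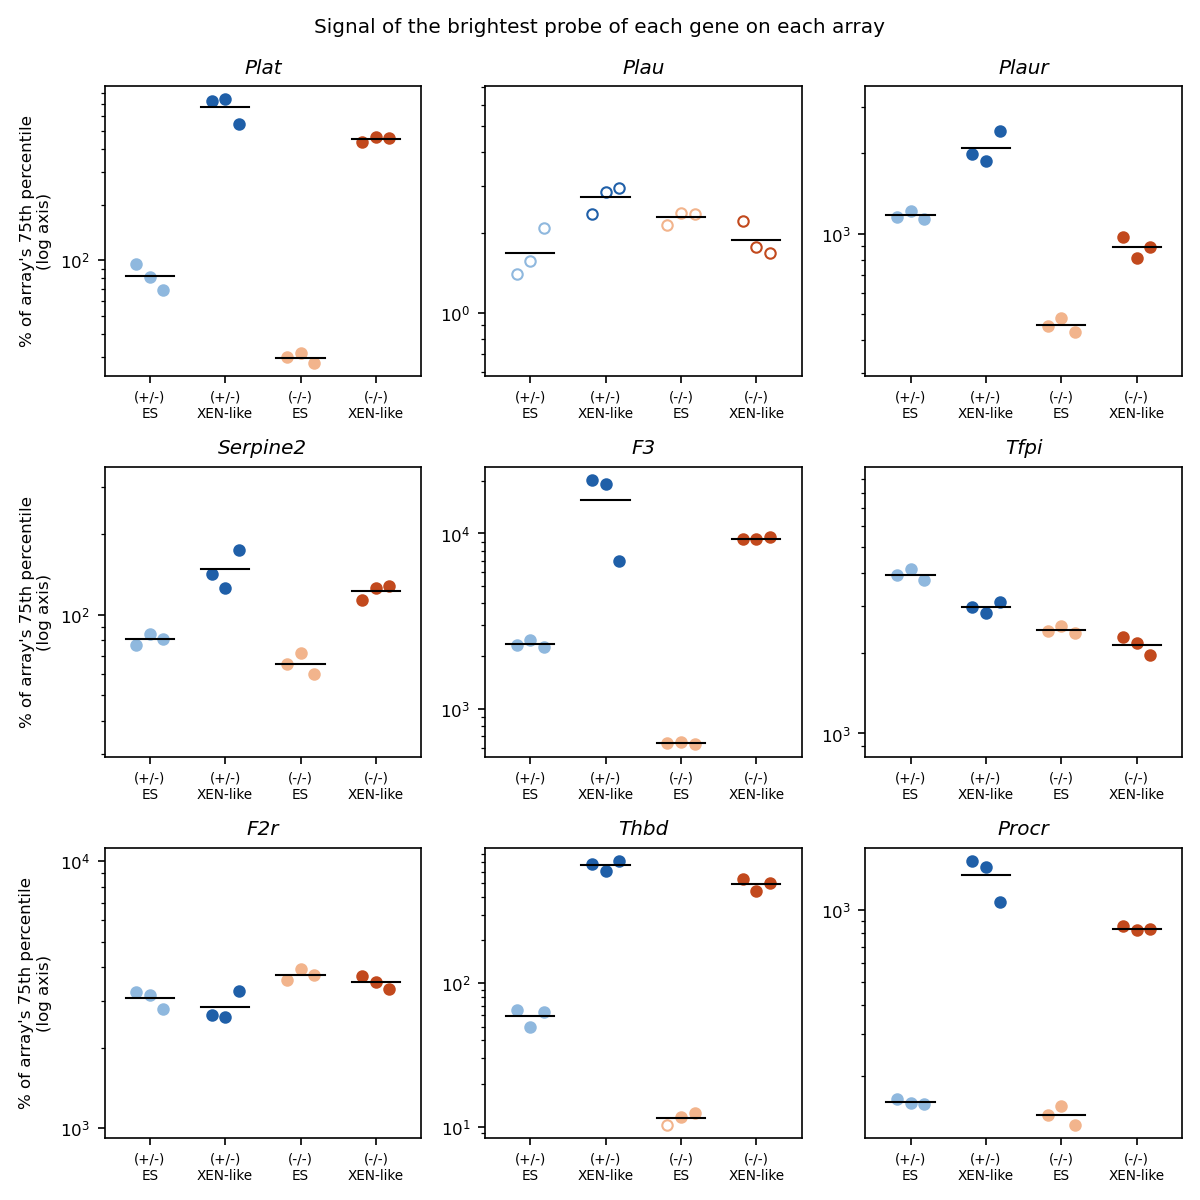
Signal of each gene on each of the 12 arrays, as a percentage of the array's 75th percentile on a log axis that differs between panels, by group (ES and XEN-like cells of *Sox7* (+/−) and *Sox7* (−/−) genotype). Points are arrays in the order of their replicate number, open where the probe was not well above background, and bars are means of 3 arrays: *Thbd* lay between 10.3% and 12.4% in *Sox7* (−/−) ES cells and between 439.9% and 530.5% in *Sox7* (−/−) XEN-like cells, and *Plau* is open throughout.

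*Plat*, which encodes tPA, was read by 1 probe (mm9 chromosome 8, 23892531 to 23892590). Its signal was 95.2%, 81.3% and 69.1% in *Sox7* (+/−) ES cells and 721%, 741% and 545% in *Sox7* (+/−) XEN-like cells. In the *Sox7* (−/−) line it was 30.0%, 31.7% and 27.9% without Dex and 434%, 461% and 456% with it. No pair of groups overlapped, and the order from low to high was *Sox7* (−/−) ES, *Sox7* (+/−) ES, *Sox7* (−/−) XEN-like and *Sox7* (+/−) XEN-like cells. The log2 difference with Dex was 3.03 in *Sox7* (+/−) cells (standard error 0.14, 8.16-fold, adjusted p = 2.9e-08) and 3.92 in *Sox7* (−/−) cells (standard error 0.14, 15.1-fold, adjusted p = 3.57e-09). The values of the deposited table gave 2.33 and 3.31, and normexp background correction 2.64 and 3.23.

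*Plau*, the gene of the other plasminogen activator, lay between 1.4% and 2.9% on the 12 arrays, on none of them well above background, and no level can be given for it (mm9 chromosome 14, 21662242 to 21662301). *Plaur*, the gene of its receptor (mm9 chromosome 7, 25260569 to 25260628) gave 1161%, 1222% and 1137% in *Sox7* (+/−) ES cells and 1999%, 1871% and 2433% in *Sox7* (+/−) XEN-like cells. The *Sox7* (−/−) arrays gave 450%, 483% and 430% without Dex and 969.5%, 808% and 891% with it. All 4 groups were apart from each other, and *Sox7* (−/−) XEN-like cells lay below even the *Sox7* (+/−) ES cells. With Dex the log2 difference was 0.83 (standard error 0.11, adjusted p = 6.77e-05) and 0.97 (standard error 0.11, adjusted p = 1.81e-05), in both cases short of 2-fold.

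*Serpine2* was read by 1 probe of minus-strand orientation whose mm9 position, chromosome 1 from 79793476 to 79796093, spans 2618 bases, so that its 60 bases cross at least 1 intron. The signal was 76.6%, 84.3% and 81.2% in *Sox7* (+/−) ES cells and 142%, 126% and 175% in *Sox7* (+/−) XEN-like cells. It was 65.0%, 71.5% and 59.6% in *Sox7* (−/−) ES cells and 113%, 126% and 128% in *Sox7* (−/−) XEN-like cells. The ES and XEN-like arrays were apart within each genotype, while the XEN-like arrays of the genotypes overlapped. The log2 difference with Dex was 0.86 (standard error 0.12, adjusted p = 1.22e-04) in *Sox7* (+/−) and 0.91 (standard error 0.12, adjusted p = 6.88e-05) in *Sox7* (−/−) cells, under 2-fold in both.

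*F3*, which encodes tissue factor, had a probe on chromosome 3 from 121437717 to 121437776 and a dimmer one from 121434609 to 121435346 (mm9), which spans 738 bases and so crosses an intron. The brighter probe gave 2324%, 2469% and 2255% in *Sox7* (+/−) ES cells and 643%, 650% and 631% in *Sox7* (−/−) ES cells. In XEN-like cells it gave 20121%, 19218% and 6954% in the *Sox7* (+/−) and 9249%, 9280% and 9553% in the *Sox7* (−/−) line. Both XEN-like groups stood above both ES groups on every array. Within *Sox7* (+/−) XEN-like cells replicate 3 was 2.89-fold below replicate 1, and the other probe showed the same array low, at 469% against 1059% and 1004%. XEN-like minus ES cells gave a log2 difference of 2.57 (standard error 0.32, 5.92-fold, adjusted p = 5.76e-05) in *Sox7* (+/−) cells and 3.87 (standard error 0.32, 14.6-fold, adjusted p = 2.09e-06) in *Sox7* (−/−) cells. The other probe gave 2.76 and 3.77. Without *Sox7* (+/−) XEN-like replicate 3 the brighter probe gave 3.07 in *Sox7* (+/−) cells.

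*Tfpi*, the inhibitor of the tissue factor pathway, was read by 3 probes on chromosome 2 (mm9), and they did not move alike. The brightest (84273059 to 84273118, assigned to transcript NM_011576) gave 3926%, 4135% and 3757% in *Sox7* (+/−) ES, 2985%, 2830% and 3116% in *Sox7* (+/−) XEN-like, 2414%, 2537% and 2371% in *Sox7* (−/−) ES and 2306%, 2185% and 1963% in *Sox7* (−/−) XEN-like cells. The groups followed one another downwards in that order without overlap. The log2 difference with Dex was −0.40 (standard error 0.08, adjusted p = 0.00113) in *Sox7* (+/−) cells and −0.18 (adjusted p = 0.058) in *Sox7* (−/−) cells. The other probe of that transcript (84284179 to 84284238) gave −0.26 in each genotype, with adjusted p values of 0.104 and 0.109.

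The *Tfpi* probe assigned to transcript NM_001177319 (84281022 to 84281081) gave 310%, 372% and 341% in *Sox7* (+/−) ES cells and 397%, 386% and 358% in *Sox7* (+/−) XEN-like cells. It gave 120%, 98.1% and 170% in *Sox7* (−/−) ES cells and 231%, 219% and 194% in *Sox7* (−/−) XEN-like cells. With Dex its log2 difference was 0.16 (adjusted p = 0.438) in *Sox7* (+/−) cells and 0.76 (adjusted p = 0.00263) in *Sox7* (−/−) cells. In both genotypes it lay on the other side of 0 from the remaining probes, though only in *Sox7* (−/−) cells did it pass the adjusted p. Between the ES lines it was called, at −1.43 (2.70-fold lower in *Sox7* (−/−) cells, adjusted p = 1.35e-04), while the other *Tfpi* probes gave −0.69 and −0.52. With the mean of all 3 probes in place of the brightest, the difference with Dex in *Sox7* (−/−) cells was 0.11. Whether the probes differ in the transcripts they detect was not tested.

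**Figure D2:**
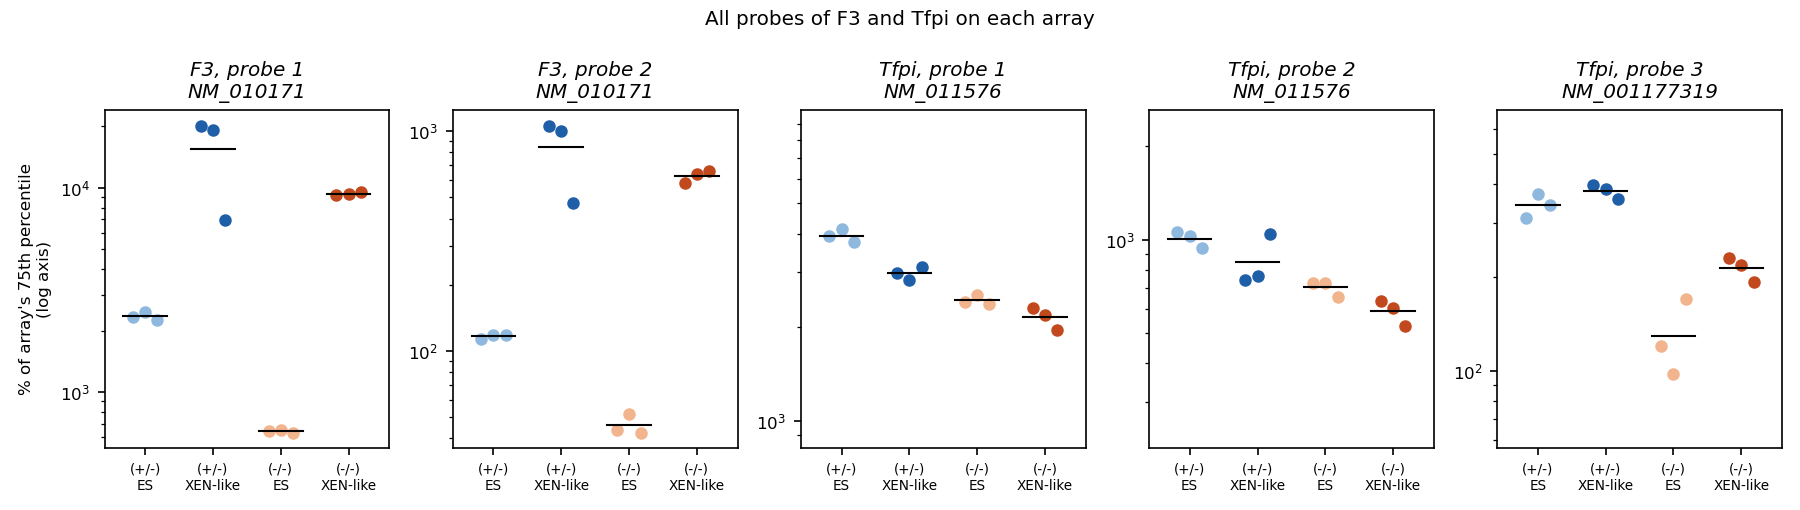
Signal of each probe of *F3* (2 probes) and *Tfpi* (3 probes, with the transcript each is assigned to) on the 12 arrays, as a percentage of the array's 75th percentile on a log axis that differs between panels. Points are arrays, bars are means of 3 arrays per group: both *F3* probes show *Sox7* (+/−) XEN-like replicate 3 low, at 6954% and 469%, and the *Tfpi* probe of NM_001177319 is higher in *Sox7* (−/−) XEN-like than in *Sox7* (−/−) ES cells, unlike the other *Tfpi* probes.

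*F2r*, the thrombin receptor PAR1, was the most even of the tested members (mm9 chromosome 13, 96371902 to 96371961, minus strand). It gave 3229%, 3165% and 2798% in *Sox7* (+/−) ES, 2649%, 2601% and 3264% in *Sox7* (+/−) XEN-like, 3592%, 3944% and 3744% in *Sox7* (−/−) ES and 3718%, 3519% and 3325% in *Sox7* (−/−) XEN-like cells. The ES and XEN-like arrays of a genotype overlapped. The response to Dex was, as a log2 difference, −0.12 (95% interval −0.34 to 0.11) in *Sox7* (+/−) and −0.10 (95% interval −0.32 to 0.13) in *Sox7* (−/−) cells.

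*Thbd*, which encodes thrombomodulin, gave the largest log2 difference with Dex of the members in both genotypes in this fit (mm9 chromosome 2, 148230235 to 148230294, minus strand). The signal was 65.1%, 49.9% and 62.9% in *Sox7* (+/−) ES cells and 684%, 609% and 710% in *Sox7* (+/−) XEN-like cells. In *Sox7* (−/−) ES cells it was 10.3%, 11.7% and 12.4%, of which the first was not well above background, and in *Sox7* (−/−) XEN-like cells 530.5%, 439.9% and 497%. The groups did not overlap, and the *Sox7* (−/−) ES arrays lay near the floor of the measurement while those of the XEN-like cells of both lines were far above it. The log2 difference with Dex was 3.50 (standard error 0.12, 11.3-fold, adjusted p = 4.74e-09) in *Sox7* (+/−) cells and 5.42 (standard error 0.12, 42.7-fold, adjusted p = 1.71e-10) in *Sox7* (−/−) cells. The size depended on how the dim signals were treated: normexp background correction, which raises them by an offset of 50, gave 3.06 and 3.96, and the values of the deposited table gave 2.77 and 4.16, all called.

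*Procr*, which encodes the protein C receptor, was 160%, 154% and 154% in *Sox7* (+/−) ES cells and 1605%, 1512% and 1078% in *Sox7* (+/−) XEN-like cells (mm9 chromosome 2, 155580945 to 155581004). The *Sox7* (−/−) line gave 137%, 150% and 125% without Dex and 854%, 823% and 831% with it. The groups did not overlap, and *Sox7* (+/−) XEN-like replicate 3 was again the lowest of its group. Dex gave a log2 difference of 3.14 (standard error 0.13, 8.83-fold, adjusted p = 1.79e-08) in *Sox7* (+/−) and 2.61 (standard error 0.13, 6.11-fold, adjusted p = 5.36e-08) in *Sox7* (−/−) cells. Both members of the protein C pathway, *Thbd* and *Procr*, thus rose in both genotypes. *Proc*, the gene of protein C itself and not a member, was dim and was called lower in both.

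**Figure D3:**
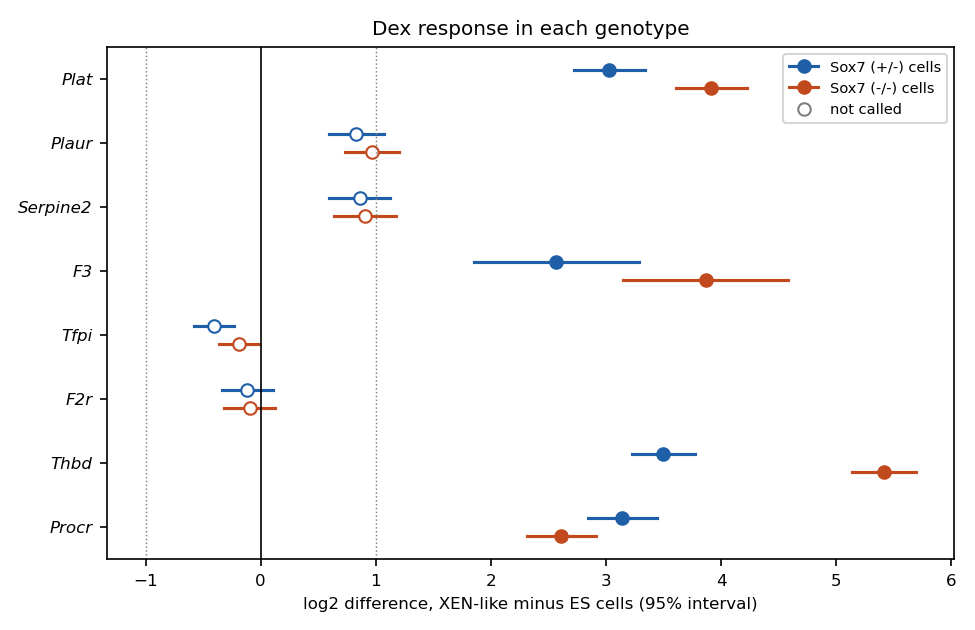
Log2 difference of XEN-like minus ES cells for the 8 tested genes, with 95% intervals from limma, in *Sox7* (+/−) and *Sox7* (−/−) cells. Filled points were called and dotted lines mark 2-fold: *Plat*, *F3*, *Thbd* and *Procr* lie beyond 2-fold in both genotypes, and *Thbd* reaches 3.50 and 5.42.

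Slide 1 allowed a comparison within a slide. There, *Sox7* (−/−) XEN-like replicate 1 was set against the 3 *Sox7* (−/−) ES arrays, and the log2 differences were 3.86 for *Plat*, 3.85 for *F3*, 5.54 for *Thbd* and 2.64 for *Procr*. With a lone XEN-like array these are values without a spread of their own. The *Sox7* (+/−) arrays of both states all lay on slide 2. Scaling by 8 spike-in controls moved the median of all tested probes by −0.48 for the Dex response of *Sox7* (+/−) cells, and the deposited table moved it by −0.39. Under both, 4 members were called in each genotype, the number given above. Calls at any size depended on the scale in *Sox7* (+/−) cells. *Plaur* was at 0.30 (adjusted p = 0.157) and *Serpine2* at 0.33 (adjusted p = 0.11) in the deposited table. *F2r* passed on the lower side with the spike-in controls (−0.60, adjusted p = 0.00128), the deposited table (−0.60, adjusted p = 0.00489) and quantile normalization (−0.35, adjusted p = 0.00313).

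Marker genes of several cell types also differed between ES and XEN-like cells, not all in 1 direction. The summed signal of 12 parietal endoderm genes, all well above background on every array, was 160169% to 165718% in *Sox7* (+/−) ES and 402868% to 442327% in *Sox7* (+/−) XEN-like cells, and 127501% to 136171% and 347442% to 365668% in the *Sox7* (−/−) cells. With Dex, 7 of the 10 pluripotency genes were called lower and 1 higher in *Sox7* (+/−) cells. In *Sox7* (−/−) cells 8 were called lower and 0 higher. Their summed signal was 83569% to 85336% in *Sox7* (+/−) ES and 58174% to 73822% in *Sox7* (+/−) XEN-like cells. The *Sox7* (−/−) cells gave 114960% to 127453% without Dex and 61451.5% to 65680.5% with it. A sum is carried mostly by the brightest genes of its list. The median log2 difference of the 10 genes with Dex was −4.89 in *Sox7* (+/−) and −4.65 in *Sox7* (−/−) cells, a larger fall than that of the sum. In each XEN-like group 3 of the 10 pluripotency genes, *Nanog* among them, were below background on every array. The remaining 7 were well above background on every array. The summed signal of 14 visceral endoderm genes was 29504% to 30895% in *Sox7* (+/−) ES and 20990% to 24388% in *Sox7* (+/−) XEN-like cells, with 4 called higher and 5 lower. In *Sox7* (−/−) cells it was 30314% to 33755% without Dex and 46461% to 52677% with it, with 8 called higher and 2 lower. The sum of 10 trophoblast genes was lower with Dex in *Sox7* (+/−) cells, at 286% to 376% against 1287% to 1302%, and higher in *Sox7* (−/−) cells, at 864% to 963% against 664% to 689%. *Thbd*, *Procr* and *Tfpi* are also genes of endothelium, and of 10 endothelial marker genes 3 or 4 were below background in every group. The summed signal of the endothelial genes was higher in XEN-like cells, at 1913% to 2951% against 1740% to 1848% in *Sox7* (+/−) cells and at 1671% to 1723% against 1289% to 1328% in *Sox7* (−/−) cells. Of the 7 tested, 1 was called higher and 2 lower in *Sox7* (+/−) cells, and 2 higher and 3 lower in *Sox7* (−/−) cells. The genes went both ways: 3 of the 7 tested, not named here, had a log2 difference on the higher side in each genotype. Others did not rise with the sum. *Erg* and *Emcn* were below background on all 12 arrays, *Pecam1* lay between 33.9% and 60.1% in ES cells and between 11.1% and 23.9% in XEN-like cells, and *Cdh5* between 37.6% and 64.8% and between 8.65% and 24.3%. Of 8 blood cell genes, 5 or 6 were below background in every group. Of 9 genes known to respond to glucocorticoids, 1 was called higher and 4 lower with Dex in *Sox7* (+/−) cells, and 1 higher and 3 lower in *Sox7* (−/−) cells. The part of these cell types and of Dex itself in the values of the members was not tested.

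Without Dex, the *Sox7* (−/−) line had less of most members than the *Sox7* (+/−) line. *Plat* (2.72-fold), *Plaur* (2.58-fold), *F3* (3.66-fold) and *Thbd* (5.16-fold) were called lower in *Sox7* (−/−) ES cells, and none was called higher. This is 4 of 8 tested members, where 8.6% of all tested genes were called in either direction, 1.97% higher and 6.63% lower. The median log2 difference of the members was −1.03, beside 0.11 for all tested genes. The log2 differences were −1.44 for *Plat* (standard error 0.14, adjusted p = 3.21e-05), −1.37 for *Plaur* (standard error 0.11, adjusted p = 8.18e-06), −1.87 for *F3* (standard error 0.32, adjusted p = 0.00118) and −2.37 for *Thbd* (standard error 0.12, adjusted p = 4.87e-07). For *Thbd*, dim in *Sox7* (−/−) ES cells, it was −1.29 with normexp and −1.43 in the deposited table, both called. Marker genes differed between the ES lines too. The summed pluripotency signal was 83569% to 85336% in *Sox7* (+/−) and 114960% to 127453% in *Sox7* (−/−) ES cells, with 3 of 10 called higher, and the parietal endoderm sum, above, was lower in *Sox7* (−/−) ES cells without overlap, with 2 of 12 called lower. Of the trophoblast genes 5 of 9 tested were called lower in *Sox7* (−/−) ES cells, and of the visceral endoderm genes 4 of 12. The part of these markers in the lower values of the members was not tested.

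The remaining members differed by less than 2-fold between the ES lines. *Tfpi* passed the adjusted p at −0.69 (9.37e-05), and *F2r*, alone among the members, was on the higher side in *Sox7* (−/−) cells, at 0.30 (adjusted p = 0.0351). *Serpine2* (−0.31, adjusted p = 0.0601) and *Procr* (−0.19, adjusted p = 0.273, 95% interval −0.49 to 0.11) did not pass it. All 8 were without overlap between the lines, as were 67.1% of all tested genes, and 6 passed the adjusted p at any size, against 46.6% of all tested genes. The 3 *Sox7* (−/−) ES arrays lay on slide 1 and the 3 *Sox7* (+/−) ES arrays on slide 2, so this comparison cannot be made within a slide. With the slide as a block, which rests on the *Sox7* (−/−) XEN-like arrays that lay on both slides, *Plat* was at −1.36, *Plaur* at −1.56 and *Thbd* at −2.55, all called, and *F3* at −1.85 with an adjusted p of 0.0843.

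In XEN-like cells the genotypes were closer, and *Plaur* was the only member called. Its log2 difference was −1.23 (standard error 0.11, 2.35-fold lower in *Sox7* (−/−) cells, adjusted p = 2.36e-05). This is 1 of 8 members, in a comparison in which 7.55% of all tested genes were called, 4.15% higher and 3.4% lower. Within slide 2 the difference of *Plaur* was −1.30 (adjusted p = 0.00109). Spike-in scaling gave −0.99 and the deposited table −0.78, short of 2-fold in both, where the median of all tested probes moved by 0.24 and 0.34; less that shift, it was −1.23 and −1.11.

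Of the other members in XEN-like cells, *Procr* (−0.72, adjusted p = 0.00283), *Plat* (−0.56, adjusted p = 0.0121), *Tfpi* (−0.47, adjusted p = 0.00144), *Thbd* (−0.45, adjusted p = 0.0188) and *F2r* (0.32, adjusted p = 0.0343) passed the adjusted p at less than 2-fold. *Serpine2* (−0.26, adjusted p = 0.12) did not. Within slide 2, *Plat* (adjusted p = 0.0769) and *F2r* (adjusted p = 0.16) did not pass it either. With the spike-in controls *Procr* (−0.48, adjusted p = 0.0935), *Plat* (−0.31, adjusted p = 0.26), *Tfpi* (−0.23, adjusted p = 0.183) and *Thbd* (−0.21, adjusted p = 0.314) did not pass, and in the deposited table the same 4 had adjusted p values of 0.152, 0.751, 0.786 and 0.885, with *Thbd* at −0.034. *F3* was at −0.57 (standard error 0.32, adjusted p = 0.195), with groups that overlapped through *Sox7* (+/−) XEN-like replicate 3. Without that array it was −1.07 (adjusted p = 2.56e-06) and was called, so that 2 members were called in place of 1. The median of the members was −0.51, beside 0.01 for all tested genes, and spike-in scaling gave −0.27 and the values of the deposited table −0.070. The groups did not overlap in 6 of the 8, as in 47.2% of all tested genes, and 6 passed the adjusted p at any size, against 35.3%.

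The genotypes of the XEN-like cells also differed in other markers. The visceral endoderm and trophoblast sums, above, were higher in *Sox7* (−/−) XEN-like cells without overlap, with 7 of 12 and 6 of 9 tested genes called higher and none lower. That of the parietal endoderm genes, above, was lower in *Sox7* (−/−) XEN-like cells without overlap, with 1 gene called lower and none higher. The part of these markers in the differences of the members was not tested.

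**Figure D4:**
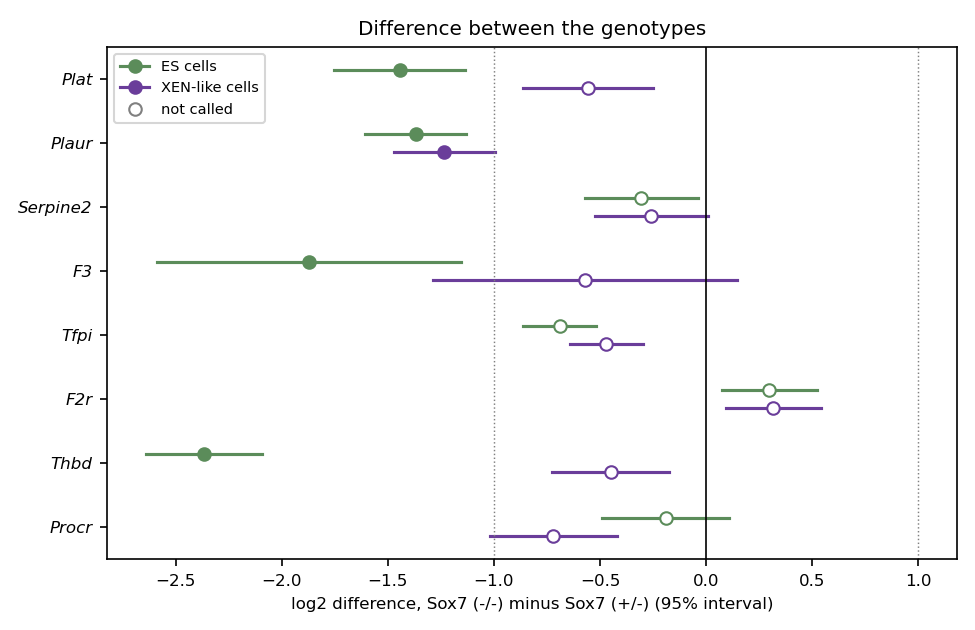
Log2 difference of *Sox7* (−/−) minus *Sox7* (+/−) cells for the 8 tested genes, with 95% intervals from limma, in ES cells and in XEN-like cells. Filled points were called and dotted lines mark 2-fold: in ES cells *Plat*, *Plaur*, *F3* and *Thbd* were called, in XEN-like cells *Plaur* alone.

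Whether the response to Dex differed by genotype was tested directly, as an interaction. *Thbd* was the only member called in it: *Sox7* (−/−) cells responded more strongly, by 1.92 on the log2 scale (standard error 0.17, 95% interval 1.53 to 2.30, adjusted p = 3.79e-05). Of all tested genes 10.2% were called and 7.05% were called with the larger value in *Sox7* (−/−) cells, and 28.8% passed the adjusted p at any size, as 2 members did. With normexp background correction the difference of *Thbd* was 0.91 (adjusted p = 5.24e-04), under 2-fold. *Plat* passed the adjusted p at 0.89 (adjusted p = 0.00822), which is under 2-fold, and with the slide as a block its adjusted p was 0.0531. *F3* had a difference of 1.30 with an adjusted p of 0.0589, and over the alternatives tried its adjusted p ran from 6.63e-05 to 0.171. Without *Sox7* (+/−) XEN-like replicate 3 the difference of *F3* was 0.80 with an adjusted p of 8.23e-05, under 2-fold.

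*Procr* was the member on the other side, at −0.53 (95% interval −0.95 to −0.11, adjusted p = 0.063). For *Plaur* the difference in response was 0.13 (95% interval −0.20 to 0.47), for *Serpine2* 0.05 (95% interval −0.33 to 0.42), for *Tfpi* 0.22 (95% interval −0.03 to 0.46) and for *F2r* 0.02 (95% interval −0.30 to 0.34), none past the adjusted p. The median over the members was 0.18, beside −0.10 for all tested genes. The genotype difference in ES cells enters this comparison, so for *Thbd* the values that make it up are the *Sox7* (−/−) ES arrays at 10.3% to 12.4% against 49.9% to 65.1% in *Sox7* (+/−) ES cells.

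By likeness of pattern over the 12 arrays, measured as the root mean square difference of log2 values centred on the mean of each gene, the closest pair among the members was *Plat* and *F3* (0.34), then *Tfpi* and *F2r* (0.46), and *Plaur* and *Serpine2* (0.52). Among 18954 other genes, *Pdpn* (0.24) and *Six2* (0.35) were nearest to *Thbd*, *Leprel4* (0.21) and *Lgi4* (0.22) to *Plat*, *9030622O22Rik* (0.26) and *Fam163a* (0.31) to *F3*, and *Neu3* (0.18) and *Ampd2* (0.20) to *Procr*. *Plaur* was nearest to *Nus1* (0.13) and *Reep3* (0.17). *Serpine2* was nearest to *Mapre1* (0.08) and *Tfpi* to *Nbl1* (0.12). A gene that varies little finds a near neighbour easily, so these values are not comparable between members.

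The rest of the pathway, 42 genes of fibrinolysis and coagulation, moved both ways. Of these 24 could be tested. With Dex, 9 were called higher and 8 lower in *Sox7* (+/−) cells, where 11% of all tested genes were called higher and 14.1% lower. In *Sox7* (−/−) cells 7 were called higher and 5 lower, beside 14.6% and 14.1% of all tested genes. The same shares apply to the smaller lists below. The other 18 of the 42 were not well above background on all arrays of any group. They include plasminogen itself (*Plg*), fibrinogen *Fga* and *Fgg*, antithrombin (*Serpinc1*) and *Tfpi2*. The numbers of calls followed the scaling: with the spike-in controls 2 were called higher and 8 lower in *Sox7* (+/−) cells. Without *Sox7* (+/−) XEN-like replicate 3 they were 8 and 7.

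Of the 13 other fibrinolysis genes 8 were tested, and 3 were called higher and 4 lower in *Sox7* (+/−) cells, with 1 and 2 in *Sox7* (−/−) cells. *Serpini1*, the gene of neuroserpin, an inhibitor of tPA, rose 3.23-fold in *Sox7* (+/−) cells (adjusted p = 0.0234), with a log2 difference of 1.69 that was 2.56 without *Sox7* (+/−) XEN-like replicate 3. *Plgrkt*, a plasminogen receptor, rose 2.08-fold there (adjusted p = 1.77e-06), a call that 6 of 24 alternatives lost. *Serpinf2*, the gene of the plasmin inhibitor, was called higher in both genotypes, from below background on every ES array, and rose at least 2.02-fold in *Sox7* (−/−) cells, while in *Sox7* (+/−) cells it was also below background with Dex, so no size is given. *Hpn*, a cell-surface serine protease, fell 28.9-fold and 7.21-fold, and *Lrp1*, an endocytic receptor that clears tPA, 4.10-fold and 5.35-fold. *Cpb2*, an inhibitor of fibrinolysis, fell 3.81-fold in *Sox7* (+/−) cells (adjusted p = 5.48e-06), while its log2 difference was 0.29 in *Sox7* (−/−) cells (adjusted p = 0.169). Of its *Sox7* (+/−) XEN-like arrays, at 16.1%, 9.44% and 10.1%, only the first was well above background.

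Of the 15 clotting factors and their makers 9 were tested, with 5 called higher and 2 lower in *Sox7* (+/−) cells and 4 and 1 in *Sox7* (−/−) cells. Prothrombin (*F2*) rose 2.46-fold in *Sox7* (+/−) cells and 19.3-fold in *Sox7* (−/−) cells (adjusted p = 5.06e-07 and 9.1e-11). Its *Sox7* (−/−) XEN-like arrays lay at 1591%, 1427% and 1331%, against 257%, 236% and 242% in *Sox7* (+/−) XEN-like cells. Factor VII (*F7*), the partner of tissue factor, was not well above background on any ES array and rose at least 3.50-fold and at least 2.10-fold. *Ggcx* and *Vkorc1*, the enzymes of the vitamin K cycle that clotting factors need, rose in both genotypes, by 2.14-fold and 2.68-fold and by 2.04-fold and 2.85-fold. In *Sox7* (+/−) cells 5 of 24 alternatives lost the call of *Ggcx* and 7 of 24 that of *Vkorc1*, which was at 0.97 without *Sox7* (+/−) XEN-like replicate 3. *F5*, the gene of clotting factor V, fell 5.63-fold in *Sox7* (+/−) cells (adjusted p = 0.00278) and was at −0.25 in *Sox7* (−/−) cells (adjusted p = 0.703). These sizes rest on dim values. Its *Sox7* (+/−) XEN-like arrays gave 7.23%, 3.55% and 16.4%, of which only the last was well above background. In *Sox7* (−/−) cells only replicate 1 was well above background, in ES and in XEN-like cells. *Vwf*, the von Willebrand factor of endothelium and platelets, fell at least 6.70-fold and at least 11.3-fold.

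Of the 10 other anticoagulant genes 5 were tested, with 1 called higher and 1 lower in *Sox7* (+/−) cells and 2 and 1 in *Sox7* (−/−) cells. *Hs3st1*, the enzyme that makes the antithrombin-binding form of heparan sulfate, rose 6.83-fold and 13.7-fold. *Serpina10*, the gene of an inhibitor of factor Xa, rose 8.89-fold in *Sox7* (−/−) cells (adjusted p = 0.0195) and was at 2.50 in *Sox7* (+/−) cells, with an adjusted p of 0.0536. Its *Sox7* (−/−) ES arrays gave 144%, 6.98% and 4.18%, of which only the first was well above background. That array overlapped the *Sox7* (−/−) XEN-like arrays, at 151%, 141% and 139%. In *Sox7* (+/−) cells the arrays did not overlap, at 8.92%, 12.5% and 13.2% against 69.5%, 69.4% and 55.2%. *Proc*, the gene of protein C, on which the products of *Thbd* and *Procr* act, was dim and fell at least 1.82-fold in *Sox7* (+/−) cells (adjusted p = 1.31e-07), where it was below background on every XEN-like array, and 5.09-fold in *Sox7* (−/−) cells (adjusted p = 8.83e-07). Of the *Sox7* (−/−) XEN-like arrays, at 6.22%, 4.63% and 8.06%, only the last was well above background. The bound and the fold are not comparable: the fitted log2 differences were −3.12 in *Sox7* (+/−) and −2.35 in *Sox7* (−/−) cells. Of the other protease-activated receptors and *Gas6*, 4 genes, 2 were tested and *F2rl1* was called lower in both genotypes, at least 1.23-fold and 2.53-fold. In *Sox7* (−/−) cells only XEN-like replicate 3 was well above background for *F2rl1*, at 10.1%.

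Between the genotypes, 6 of the 24 were called higher and 3 lower in *Sox7* (−/−) XEN-like cells, and none higher and 5 lower in *Sox7* (−/−) ES cells. Of all tested genes, 4.15% were called higher and 3.4% lower in the XEN-like comparison, and 1.97% and 6.63% in that of ES cells. In XEN-like cells *F2* was 5.90-fold and *Hpn* 3.69-fold higher in *Sox7* (−/−) cells, and *Anxa5*, an anticoagulant phospholipid-binding protein, 2.82-fold lower (adjusted p = 4.04e-05). *Serpinf2* was at least 1.68-fold and *Cpb2* 2.02-fold higher, and *Serpini1* was 4.75-fold lower (adjusted p = 0.0126). For *Cpb2*, only replicate 1 of the *Sox7* (+/−) XEN-like arrays was well above background. Without *Sox7* (+/−) XEN-like replicate 3 *Cpb2* was at 0.92, under 2-fold, and *Serpini1* at −3.12 in place of −2.25. *Proc* and *F2rl1* were called higher from below background in *Sox7* (+/−) XEN-like cells, and *Vwf* was called lower with both groups below background, so no size is given for these. In ES cells *Anxa2*, a surface receptor for tPA and plasminogen, was 2.43-fold lower in *Sox7* (−/−) cells (adjusted p = 4.07e-05), the same side as *Plat* and *Plaur*. *Cpb2* was 2.31-fold, *Hs3st1* 2.10-fold, *F5* 4.51-fold and *Fgb*, a fibrinogen chain, at least 1.19-fold lower in these cells. For *F5*, only replicate 1 of the *Sox7* (−/−) ES arrays was well above background, at 10.5%. With the slide as a block 1 was called higher and 2 lower in *Sox7* (−/−) ES cells.

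**Figure D5:**
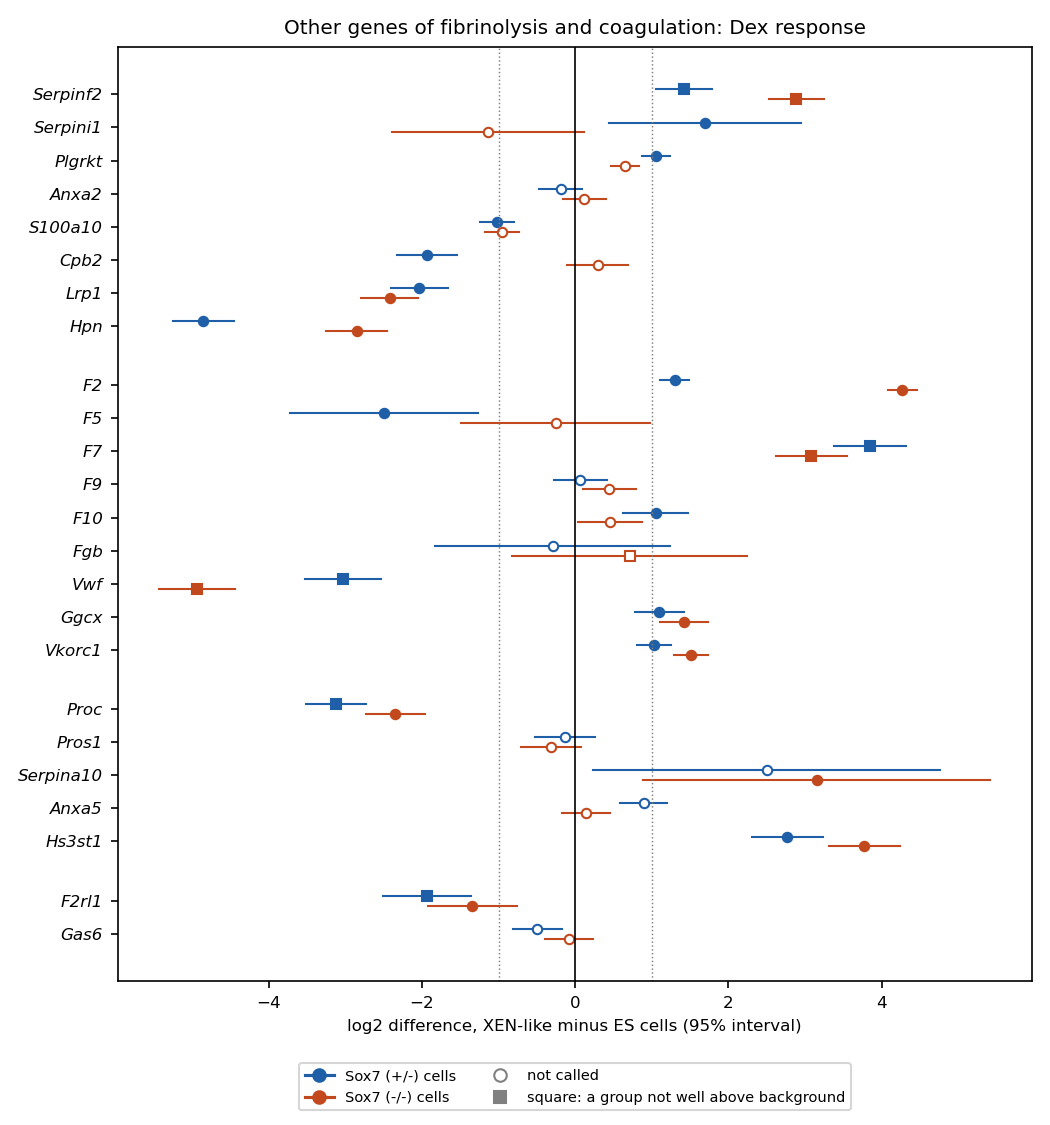
Log2 difference of XEN-like minus ES cells for the 24 tested genes of fibrinolysis and coagulation that are not members, with 95% intervals from limma, in *Sox7* (+/−) and *Sox7* (−/−) cells. Filled symbols were called and squares mark a group that was not well above background on any array, for which the plotted value is no measure of size. Among the circles *Hpn* lies at −4.86 and −2.85, and *F2* at 1.30 and 4.27.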

How the data were processed

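RNA of the 4 groups had been hybridized by the authors to 12 single-colour Agilent arrays, 3 per group. The intensity values deposited for each array are the output of Agilent Feature Extraction (version 10.7.3.1 per the labels), in which the processed signal is background-subtracted and detrended but not scaled between arrays. A deposited table of intensity values lay within 0.498% of the mean spot signal and was used as an alternative.

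Each array was scaled to the 75th percentile of its processed signals and log2 was taken, outlier spots were left out, and replicate spots were averaged per probe. A probe entered the fit where some group had it well above background on each of its 3 arrays, and these 25938 probes were fitted with limma 3.58.1 (R 4.3.3), with 1 mean per group, and p values were adjusted over all of them. Genes were read by their brightest probe. Where a whole group was below background, the fold is a bound, taken against the lowest signal well above background on each array or the probe's own where higher. The number of arrays limits the precision. The procedure was tested on simulated data. The members and the gene lists were chosen with earlier results of these data known, which also set the rule by which genes are named: all members, and of each list up to 3 called genes with the largest rise and up to 3 with the largest fall in each comparison. Some genes are not reported here. The endothelial, blood and other marker lists come from general knowledge of these cells. Alternatives were another background correction, 3 other scalings, quantile normalization, other filters, an intensity trend, blocks for the slide or the replicate number, and the omission of 1 array at a time. Same-numbered replicates across groups did not deviate together (correlations of −0.051 to 0.126), and the numbers were not treated as pairs. Probe positions are those of the deposited files (mm9), promoters those of RefSeq on GRCm38.p6.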

Additional observations from a re-analysis of the deposited data

Results flagged for a closer look

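The Dex response differed between the genotypes, by the test of the difference itself, for 2 of the 8 tested members. At any size, 28.8% of all tested genes passed the adjusted p in this test. The log2 difference was larger in *Sox7* (−/−) than in *Sox7* (+/−) cells by 1.92 for *Thbd* (adjusted p = 3.79e-05 from limma) and by 0.89 for *Plat* (adjusted p = 0.00822), the latter under 2-fold. Each of these responses was a rise in both genotypes. With normexp background correction the difference of *Thbd* was 0.91, under 2-fold. With the slide as a block the adjusted p of *Plat* from limma was 0.0531. The ES arrays of the genotypes lay on different slides. With Dex, mean signals were lower in *Sox7* (−/−) cells, at 489% against 668% for *Thbd* and 451% against 669% for *Plat*. Without Dex they were 11.5% against 59.3% and 29.9% against 81.9%.

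Among the other genes of the pathway, the difference was 2.0 for *Hpn* (adjusted p = 3.23e-04) and 2.22 for *Cpb2* (adjusted p = 1.53e-04), which inhibits fibrinolysis. *Hpn* fell in both genotypes, and less in *Sox7* (−/−) cells. For *Cpb2*, *Sox7* (+/−) XEN-like cells were well above background on replicate 1 only. *F2* had a difference of 2.98 (adjusted p = 2.52e-07), and *Serpinf2*, the gene of the plasmin inhibitor, 1.47 (adjusted p = 0.00119), with signals not well above background in 3 of the 4 groups. *Hs3st1* had 1.0 (adjusted p = 0.029), which was 0.79 without *Sox7* (+/−) XEN-like replicate 3. *Vwf* was at −1.91 (adjusted p = 0.00171), where both XEN-like groups were below background. *Serpini1*, the gene of neuroserpin, was at −2.83 (adjusted p = 0.025), and *Sox7* (+/−) XEN-like replicate 3 was far below the other arrays of its group for this gene, at 35.2% against 206% and 225%. Without that array the value was −3.70.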

How the results depend on the processing

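The Dex calls of *Plat*, *F3*, *Thbd* and *Procr* held under every alternative that gave a value. With no minimum fold, 7 members passed in *Sox7* (+/−) cells, 6 in the XEN-like comparison and 2 in the test of whether the response differed by genotype. The spike-in controls and the deposited table gave 0 members in the XEN-like comparison, and 3 and 2 in the difference in response, and an intensity trend gave 2 there. Leaving out each array in turn gave 4 to 4 members in *Sox7* (+/−) cells, 4 to 5 in *Sox7* (−/−) cells, 4 to 4 in ES cells, 1 to 2 in XEN-like cells and 1 to 2 in the difference in response. The 2 in XEN-like cells came without *Sox7* (+/−) XEN-like replicate 3 (*F3*), and those in the difference in response without *Sox7* (+/−) ES replicate 3 (*Plat*, 1.0) or *Sox7* (+/−) XEN-like replicate 1 or 2 (*F3*, 1.57 and 1.53). With the replicate block 4, 4, 1, 4 and 1 members were called (Dex in *Sox7* (+/−) and *Sox7* (−/−) cells, XEN-like cells, ES cells, difference in response), the same as without it. Values that changed sign were never called: *Serpine2* was 0.16 in XEN-like cells with the deposited table, and −0.061 in the difference in response with the slide as a block. Leaving out each array in turn, the difference in response ran from −0.062 to 0.17 for *Serpine2* and from −0.039 to 0.12 for *F2r*. *Tfpi* in *Sox7* (−/−) cells was 0.11 with the mean of its probes. The low signal over background limits *Plau* and, in *Sox7* (−/−) ES cells, *Thbd*. Except where a value above shows the cause, it was not tested.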
